A study of Mus musculus with 6 samples.

Results

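The keratin genes were examined in 6 RNA sequencing libraries from mouse lung squamous cell carcinoma biopsies. Members were taken by symbol from the deposited count table: every symbol with KRT followed directly by a number, without the keratin-associated KRTAP genes, KRTCAP, KRTDAP or pseudogenes marked -PS. This gave 51 of 46937 symbols, 26 of type I and 25 of type II, and 27 of the 51 had enough counts to be among the 21201 genes tested. Symbols are in capitals, as in the count table. The PSCN group (3 libraries) came from tumours with the PSC alterations and, in addition, expression of NSD3T1242A, a mutant of the histone methyltransferase NSD3. The PSC group (3 libraries, the control, labelled NSD3 WT) came from tumours with constitutively active PI3K (Pik3caH1047R), overexpressed SOX2 (Sox2OE) and deletion of Cdkn2a and Cdkn2b (Cdkn2a/bKO), alterations that PSCN tumours share. Age, sex, the drivers of the transgenes and whether each biopsy came from its own mouse are not given in the labels used here, so a p-value here reflects only how far these samples spread.

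Keratins are the intermediate filament proteins of epithelial cells. A filament is built from pairs of an acidic type I and a basic type II keratin, and which pair a cell makes follows its kind of epithelium: KRT8 with KRT18 in simple epithelium such as airway lining, KRT5 with KRT14 in the basal layer of stratified epithelium, KRT4 with KRT13 above it in mucosa, KRT1 with KRT10 above it in epidermis, and KRT6 with KRT16 or KRT17 in wounded or fast-growing squamous epithelium. Squamous lung tumours are known for the basal and activation pairs. In GENCODE M21 (GRCm38, the build of the submitters' processing notes), 25 of the 51 lie in the type I cluster on chromosome 11 and 26 on chromosome 15, which holds the type II cluster and, beside KRT8, the type I gene KRT18.

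Total counts per library lay between 69563622 and 72807077. PSC library 3 stood apart from its group: over all genes, which are not independent replicates, the mean correlation of its log2 CPM was 0.941 with PSCN and 0.908 with PSC. The female transcript XIST exceeded the Y-linked DDX3Y in PSC libraries 2 and 3 and not in the other 4, so the groups also differ in the sex of the mice. The summed CPM (counts scaled to a common library size with TMM factors) of 5 squamous carcinoma markers (TP63, SOX2, DSG3, PKP1, PERP) was 2922, 5689 and 3565 in PSCN libraries 1, 2 and 3 and 257, 859 and 2333 in PSC libraries 1, 2 and 3. SOX2 is also overexpressed by design in both groups, and its own values overlapped. They were 260, 144 and 438 CPM in PSCN and 131, 224 and 276 CPM in PSC. TP63 itself, the squamous lineage factor, stood at 10.4 CPM in PSC library 1, against at least 80.2 CPM in every other library.

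The upstream sequence of 4 keratins is shown, 3 with higher values in every PSCN library (KRT13, KRT20, KRT10) and 1 with lower values in every PSCN library (KRT18). Each line is the 250 bases before the RefSeq start of transcription (GRCm38.p6), 5′ to 3′ on the gene's strand. Capitals mark matches, on either strand, to TATAAA (the TATA box), TGANTCA or ACAAAG (a SOX element). TGANTCA takes any base at N, so it is looser than the AP-1 element it was drawn from. Its match in KRT13 reads TGAATCA.
KRT13 (chr11:100121567-100121816, minus strand): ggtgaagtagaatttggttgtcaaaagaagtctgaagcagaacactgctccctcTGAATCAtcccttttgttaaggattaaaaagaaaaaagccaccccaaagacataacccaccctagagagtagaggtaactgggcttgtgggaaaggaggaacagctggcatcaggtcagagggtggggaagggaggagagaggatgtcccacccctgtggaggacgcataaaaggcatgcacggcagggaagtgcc
KRT20 (chr11:99438154-99438403, minus strand): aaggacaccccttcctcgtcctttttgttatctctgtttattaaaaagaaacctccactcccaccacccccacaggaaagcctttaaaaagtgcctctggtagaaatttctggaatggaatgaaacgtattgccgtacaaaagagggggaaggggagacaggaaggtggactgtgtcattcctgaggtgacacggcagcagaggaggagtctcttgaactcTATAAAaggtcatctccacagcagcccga
KRT10 (chr11:99389365-99389614, minus strand): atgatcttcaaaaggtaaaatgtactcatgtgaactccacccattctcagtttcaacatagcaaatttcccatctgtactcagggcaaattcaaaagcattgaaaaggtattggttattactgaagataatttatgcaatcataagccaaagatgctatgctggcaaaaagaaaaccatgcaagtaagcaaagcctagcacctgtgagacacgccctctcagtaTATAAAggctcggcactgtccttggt
KRT18 (chr15:102027966-102028215, plus strand): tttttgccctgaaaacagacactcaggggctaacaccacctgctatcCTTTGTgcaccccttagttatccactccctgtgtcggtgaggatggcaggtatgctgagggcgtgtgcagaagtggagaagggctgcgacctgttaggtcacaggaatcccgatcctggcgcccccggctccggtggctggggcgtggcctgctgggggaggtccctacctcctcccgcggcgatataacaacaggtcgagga

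RefSeq windows were found for 35 of the 51 keratins. TATAAA was in 16 of these (45.7%), against 12.4% of all 32851 promoter windows of the same length, and in 4 of the 16 tested keratins that had a window. TGANTCA was in the window of KRT13 and of no other keratin, against 6.75% of all windows, and ACAAAG was in 4 keratin windows, KRT18 among them, against 16.5% of all windows. KRT5 held none of the 3 motifs in its window. The windows of KRT14 and KRT7 lie wholly inside the genes as GENCODE M21 annotates them, so they are not upstream of those longer forms, although both are among the 35. Those of KRT8, KRT18, KRT23, KRT26, KRT71 and KRT82 run partly into the annotated gene. For KRT18, shown above, the window ends at 102028215 and the annotated gene starts at 102028180. A match is a stretch of letters and does not show that a factor binds there.

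Keratin transcripts took a larger share of the counts in every PSCN library than in any PSC library. The 51 genes held 2.03, 3.73 and 1.72% of all counts in PSCN libraries 1, 2 and 3, against 0.21, 0.452 and 1.36% in PSC libraries 1, 2 and 3. The means were 2.5 ± 1.08% in PSCN and 0.673 ± 0.605% in PSC (SD, n = 3 each). PSC library 3 lay near the lowest PSCN library, and PSC library 1 was the lowest of all. In bulk tissue, fewer cells of a type and less RNA per cell cannot be told apart, and this holds for every level below.

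The classes did not share this difference equally. The 6 simple keratins held 0.187, 0.144 and 0.22% of all counts in PSCN libraries 1 to 3 and 0.177, 0.179 and 0.224% in PSC libraries 1 to 3, so the groups overlapped. Basal keratins held 0.683, 1.63 and 0.476% in PSCN, against 0.0109, 0.128 and 0.4% in PSC. Activation keratins (KRT6B, KRT16, KRT17, KRT42) held 0.679, 1.24 and 0.73% in PSCN, against 0.0108, 0.0772 and 0.52% in PSC. Mucosal suprabasal keratins held 0.464, 0.668 and 0.283% in PSCN, against 0.0021, 0.0559 and 0.194% in PSC. As a share of keratin counts alone, simple keratins made up 9.18, 3.85 and 12.8% in PSCN and 84.3, 39.7 and 16.5% in PSC. The keratin pool of PSC library 1 was mostly simple, while basal, activation and mucosal keratins together made up most of it in the other 5 libraries.

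**Figure D1:**
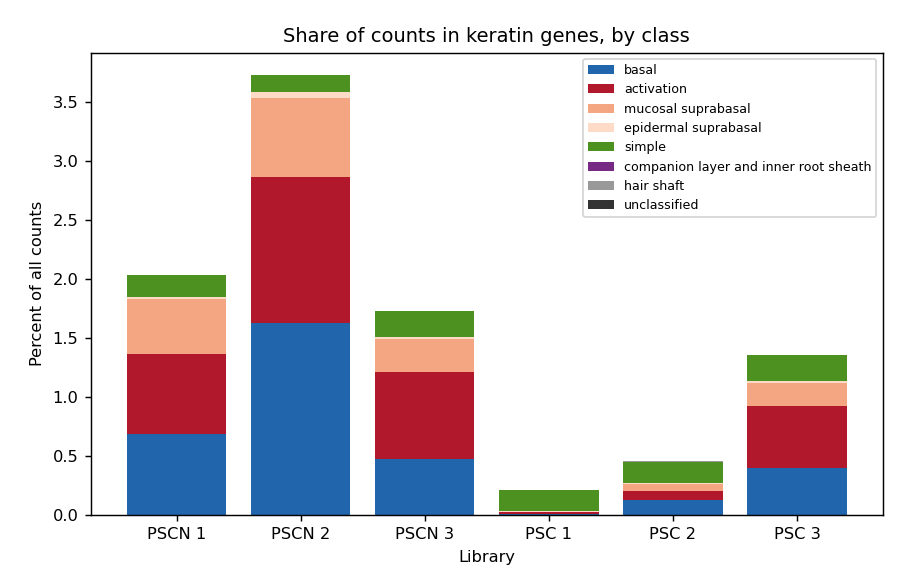
Stacked bars give the percent of all counts (y axis) in each keratin class, for PSCN libraries 1 to 3 and PSC libraries 1 to 3 (x axis). The bars reach 2.03, 3.73 and 1.72% in PSCN and 0.21, 0.452 and 1.36% in PSC, while the simple class stays between 0.144 and 0.224% in all 6.

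No keratin passed the test over all genes. With edgeR at an adjusted p of 0.05, 0 keratins were higher and 0 lower in PSCN; over all genes tested the shares were 0.00472% higher and 0% lower, and the lowest adjusted p of a keratin was 0.137. Without adjustment, 3 higher (KRT10, KRT78, KRT80) and 3 lower keratins (KRT18, KRT75, KRT83) of the 27 had p under 0.05, where the shares over all genes were 9.48% and 12.2%. Of the 27, 19 had positive and 8 negative log2 fold changes, against 49.1% positive and 50.9% negative over all genes. The median log2 fold change was 1.43 for the 27 keratins and -0.01 for all genes tested. The groups did not overlap for 12 keratins, with PSCN above for 9 and below for 3, against 15.2% and 13.4% of all genes tested. In each of the 9, PSC library 1 was the lowest and PSC library 3 the highest of its group. A gene passed the filter on low counts also when it was high in 1 group alone, so these counts describe the 27 and not all 51 keratins.

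Other treatments of the same counts made calls. Without PSC library 3, edgeR called KRT16 and KRT20 higher and KRT18 and KRT75 lower, of 29 keratins tested, where 3.39% and 5.4% of all genes were called higher and lower. The median log2 fold change was then 2.74 for the keratins. DESeq2 on all 6 libraries called KRT10, KRT16 and KRT78 higher and KRT18, KRT75 and KRT83 lower, against 5.31% and 8.65% of all genes. limma-voom with sample quality weights called KRT16 and KRT20 higher and KRT18, KRT75 and KRT83 lower, against 8.43% and 5.84%, and without weights it called 0. The authors' deposited table has an adjusted p for 31 keratins and puts 5 under 0.05 with higher values in PSCN (KRT78, KRT10, KRT32, KRT16, KRT42) and 3 with lower values (KRT75, KRT18, KRT83), against 3.92% and 8.1% of all genes in that table.

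**Figure D2:**
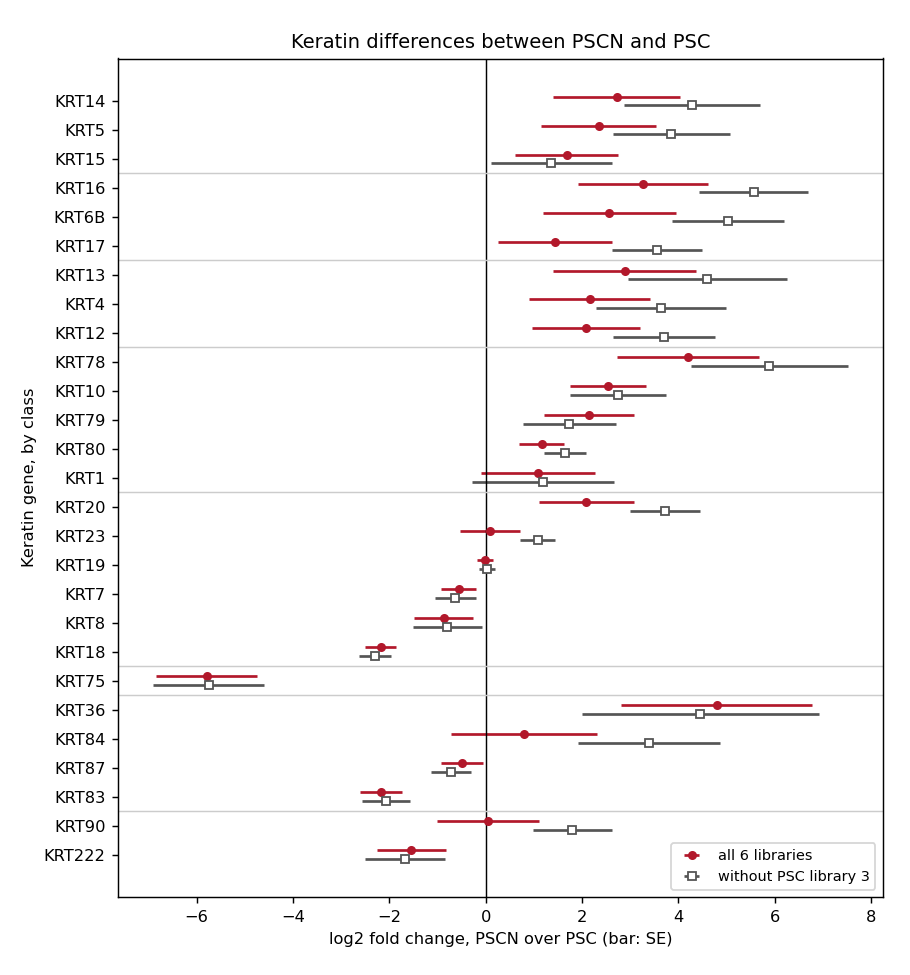
Points give the log2 fold change of PSCN over PSC (x axis) for each of the 27 tested keratins (y axis, by class), with bars of 1 SE, from all 6 libraries (filled circles) and without PSC library 3 (open squares). Basal, activation and mucosal keratins other than KRT15 lie further to the right without that library, while KRT18 and KRT75 stay at about the same place.

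The basal pair was among the most abundant transcripts of the PSCN tumours. KRT5, the type II basal keratin (chr15:101707070-101712898), stood at 3487, 7319 and 2678 CPM in PSCN libraries 1, 2 and 3, against 52.1, 575 and 2035 CPM in PSC libraries 1, 2 and 3. Its log2 fold change was 2.34 (SE 1.20, adjusted p = 0.3). KRT14, its type I partner (chr11:100203162-100207548), stood at 3519, 10416 and 2099 CPM in PSCN, against 44.7, 507 and 1883 CPM in PSC, a log2 fold change of 2.72 (SE 1.32, adjusted p = 0.279). Without PSCN library 2 that of KRT14 was 1.76, and without PSC library 3 it was 4.29. For both genes every PSCN library lay above every PSC library, but PSC library 3 came close to PSCN library 3, and neither passed the test. Ranked by count among all symbols, KRT14 was at place 15, 3 and 31 in PSCN and at place 5037, 132 and 24 in PSC. KRT15, a type I keratin of basal and stem-like cells, followed another order, with 243, 101 and 58.7 CPM in PSCN and 5.87, 99.5 and 20.2 CPM in PSC. Its highest PSC value was in library 2 and not in library 3, and the groups overlapped (log2 fold change 1.68, SE 1.07, adjusted p = 0.383). The KRT15 value was 0.95 without PSCN library 1 and 3.36 without PSC library 2.

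The activation keratins reached levels like those of the basal pair. KRT6B, a type II keratin induced in wounds (chr15:101676023-101680287), stood at 4683, 9387 and 3979 CPM in PSCN libraries and at 41.9, 329.8 and 2679.6 CPM in PSC libraries, with no overlap between groups. Its log2 fold change was 2.56 (SE 1.38, adjusted p = 0.318). KRT6A has no value here, and the KRT6B count may hold reads of both genes: the transcripts are 90.5% identical and 36.6% of the windows of 76 bases, the read length, in KRT6B occur unchanged in KRT6A. KRT16, a type I partner (chr11:100246091-100248902), stood at 642, 2139 and 474 CPM in PSCN and at 9.89, 36.6 and 291 CPM in PSC (log2 fold change 3.27, SE 1.35, adjusted p = 0.234). Leaving out a library moved KRT16 both ways: its log2 fold change was 2.29 (adjusted p = 0.471) without PSCN library 2 and 5.56 (adjusted p = 0.0495) without PSC library 3. KRT17, another type I activation keratin, stood at 1881, 2044 and 2954 CPM in PSCN and at 50, 344 and 2151 CPM in PSC. PSC library 3 exceeded PSCN libraries 1 and 2 there, so the groups overlapped (log2 fold change 1.43, SE 1.19, adjusted p = 0.494). KRT42, a keratin close to KRT17 in the mouse, was not tested and had 36, 7 and 27 counts in PSCN and 0, 4 and 0 counts in PSC.

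Of the suprabasal keratins, the mucosal pair was far more abundant than the epidermal pair. KRT13, the type I mucosal keratin (chr11:100117327-100121566), stood at 3689, 5035 and 2006 CPM in PSCN, against 7.32, 289.6 and 1158 CPM in PSC (log2 fold change 2.88, SE 1.48, adjusted p = 0.301). The highest PSC library was 158-fold above the lowest, compared with 2.51-fold within PSCN. KRT4, its type II partner, stood at 1224, 2288 and 858 CPM in PSCN and at 12.2, 223 and 743 CPM in PSC, again with no overlap (log2 fold change 2.16, SE 1.26, adjusted p = 0.347). KRT12, known from the cornea, was low, with 9.8, 3.26 and 8.45 CPM in PSCN and 0.135, 0.977 and 3.98 CPM in PSC, and overlapped between groups (log2 fold change 2.08, SE 1.13, adjusted p = 0.32). KRT24 and KRT76 had at most 5 counts in any library.

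Among epidermal suprabasal keratins, KRT10, the type I keratin of the spinous layer, stood at 14.5, 50.4 and 5.86 CPM in PSCN and at 3.23, 3.89 and 5.04 CPM in PSC. All PSCN values lay above all PSC values, and the log2 fold change was 2.54 (SE 0.80, adjusted p = 0.192). It was 1.28 without PSCN library 2 and 2.74 without PSC library 3. KRT1, its usual type II partner, stayed low, with 0.233, 3.63 and 0.181 CPM in PSCN and 0.432, 0.765 and 0.695 CPM in PSC, and KRT2 had no count. KRT78, a type II keratin of differentiating stratified epithelium, stood at 27.4, 165 and 11.5 CPM in PSCN and at 0.486, 1.82 and 8.79 CPM in PSC (log2 fold change 4.20, SE 1.47, adjusted p = 0.2). The KRT78 value was 2.36 without PSCN library 2 and 5.89 without PSC library 3. PSCN library 2 held most of the counts of KRT1, KRT10 and KRT78, and without it the log2 fold change of KRT1 was -1.64, against 1.09 with it. KRT80, a type II keratin found in many epithelia, stood at 159, 315 and 132 CPM in PSCN and at 69.8, 60.5 and 141 CPM in PSC, so PSC library 3 lay above PSCN library 3 (log2 fold change 1.16, SE 0.47, adjusted p = 0.228). KRT79, a type II keratin of sebaceous ducts, stood at 8.22, 20.7 and 3.57 CPM in PSCN and at 1.38, 5.2 and 0.817 CPM in PSC and overlapped between groups (log2 fold change 2.13, SE 0.94, adjusted p = 0.248). Summed per kb of exon, the mucosal class was at 2605, 3839.8 and 1508 CPM per kb in PSCN and at 9.82, 264 and 987 CPM per kb in PSC, whereas the epidermal class was at 41.5, 126 and 27.6 CPM per kb in PSCN and at 13, 13.1 and 27.4 CPM per kb in PSC. KRT80 alone gave 24.8, 49.2 and 20.7 CPM per kb of the epidermal sum in PSCN and 10.9, 9.46 and 22 in PSC. It was most of that sum in every library except PSCN library 2. The annotated exons of KRT80 include long ones, which lowers its value per kb.

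**Figure D3:**
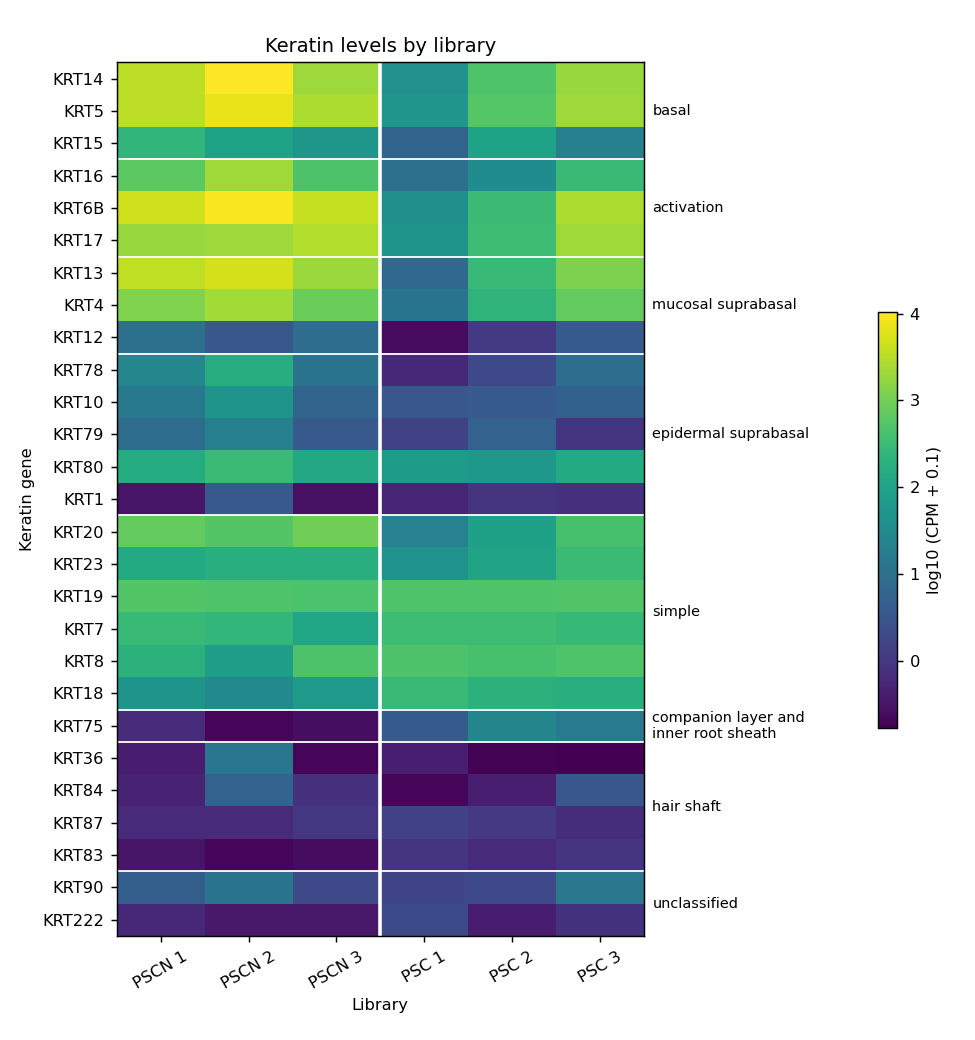
Colours give log10 (CPM + 0.1) for the 27 tested keratins (rows, by class) in PSCN libraries 1 to 3 and PSC libraries 1 to 3 (columns). Basal, activation and mucosal rows are brightest in PSCN and in PSC library 3 and darkest in PSC library 1, the KRT19 row is even across all 6, and the KRT18 and KRT75 rows are darker in PSCN.

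The simple keratins did not share a direction: of 6 tested, 2 had positive and 4 negative log2 fold changes. KRT18, the type I keratin of simple epithelium (chr15:102028180-102032027), stood at 50.1, 32.2 and 63.5 CPM in PSCN libraries, against 280.3, 204 and 176 CPM in PSC libraries. Every PSCN value was below every PSC value, the means were 48.6 ± 15.7 CPM in PSCN and 220.3 ± 53.9 CPM in PSC (SD, n = 3 each), and the log2 fold change was -2.18 (SE 0.32, adjusted p = 0.137). This was the smallest adjusted p of any keratin, and without PSC library 3 the log2 fold change was -2.31 (adjusted p = 0.0403). KRT8, its type II partner and neighbour, stood at 201, 81.1 and 487 CPM in PSCN and at 487, 411 and 509 CPM in PSC, so PSCN library 3 reached the PSC range (log2 fold change -0.87, SE 0.61, adjusted p = 0.424). Without that library the KRT8 value was -1.76. For comparison, the pseudogene KRT8-PS held between 1.55 and 2.08% as many counts as KRT8, and some reads of KRT8 could have been given to either. KRT7, the type II keratin of ducts and glands, stood at 284, 249 and 109 CPM in PSCN and at 335, 334 and 278 CPM in PSC, and PSCN library 1 lay inside the PSC range (log2 fold change -0.56, SE 0.36, adjusted p = 0.392).

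KRT19, a type I keratin found in both simple and basal cells, was nearly level over the 6 libraries, with 553, 494 and 455 CPM in PSCN and 491, 502 and 528 CPM in PSC. Its log2 fold change was -0.018 (SE 0.16, adjusted p = 0.958). KRT23 stood at 143, 171 and 179 CPM in PSCN and at 49.6, 107 and 306 CPM in PSC, with the PSC range enclosing that of PSCN (log2 fold change 0.090, SE 0.63, adjusted p = 0.943). KRT20, known from gut, urothelium and Merkel cells, had the order of libraries seen in the basal pair within PSC: it stood at 751, 548 and 938 CPM in PSCN and at 22.8, 91.1 and 412 CPM in PSC. Its groups did not overlap (log2 fold change 2.09, SE 0.99, adjusted p = 0.27), and without PSC library 3 its log2 fold change was 3.72 (adjusted p = 0.0474).

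Markers of normal lung epithelium differed between libraries too. The summed CPM of 8 ciliated cell genes was 47.1, 30.1 and 69.1 in PSCN and 919, 422 and 40.4 in PSC, with all 8 log2 fold changes negative and none of the genes at 0 in all libraries. That of the 4 club cell genes measured was 1919, 567 and 1460.0 in PSCN and 26885, 17764 and 2764 in PSC, and those of 5 alveolar type 2 genes were 1970, 2132 and 2563 in PSCN and 6428, 11618 and 1093 in PSC. Alveolar type 1 genes summed to 809, 1216 and 826 CPM in PSCN and 836, 1572 and 607 CPM in PSC, which overlapped. Of these 5 genes, 4 had negative log2 fold changes. AQP5 was lower in every PSCN library (-0.68) and HOPX was higher in every PSCN library (1.01). The mesothelial sum was nearly all MSLN, which stood at 28.4, 4.82 and 4.42 CPM in PSCN and 146, 151 and 46.5 CPM in PSC, while WT1 and UPK3B overlapped between groups. In PSC library 3 the ciliated sum was within the PSCN range and the alveolar sums were below it. The club sum, MSLN and KRT18 (176 CPM) were above all 3 PSCN libraries there. Single genes could differ from these sums. The club gene SCGB1A1 was at 572 CPM in PSC library 3, inside the PSCN range. The alveolar genes ABCA3 (263 CPM) and AQP5 (139 CPM) were above all 3 PSCN libraries there. The part that any of these cell types has in the KRT18 difference was not tested.

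The keratins of the hair follicle were low apart from KRT75 in PSC and KRT36 in 1 PSCN library. KRT75, a type II keratin of the companion layer around the hair root (chr15:101563345-101573904), had 39, 7 and 11 counts in PSCN libraries, against 302, 1991 and 1186 counts in PSC libraries. In CPM this was 0.277 ± 0.254 in PSCN and 15.5 ± 11.1 in PSC (SD, n = 3 each), a log2 fold change of -5.80 (SE 1.04, adjusted p = 0.167). Without PSC library 3 it was -5.75 (adjusted p = 0.0486), and with sex as covariate -3.87. PSC library 1 is the only male control, so the value with sex as covariate compares PSCN with that library alone. The other 8 keratins of the inner root sheath and companion class had at most 3 counts in a library. Among hair shaft keratins, KRT83 had 15, 7 and 10 counts in PSCN and 60, 39 and 59 counts in PSC (log2 fold change -2.18, SE 0.43, adjusted p = 0.171), and 10.3% of its windows of 76 bases occur in KRT86. KRT36 had 21, 827 and 7 counts in PSCN and 24, 6 and 5 counts in PSC, so its log2 fold change of 4.79 (SE 1.98, adjusted p = 0.235) was 0.30 without PSCN library 2. KRT84 was highest in PSCN library 2 and PSC library 3, with 346 and 242 counts, and overlapped between groups, as did KRT87. KRT32, not tested, had 23, 55 and 6 counts in PSCN and 0, 3 and 0 counts in PSC.

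The remaining keratins carried little signal. The 3 without a class were KRT90, KRT222 and KRT88. KRT90 stood at 4.65, 11.4 and 1.83 CPM in PSCN and at 1.62, 1.85 and 13.9 CPM in PSC, with no steady direction (log2 fold change 0.044, SE 1.05, adjusted p = 0.984). KRT222, a small keratin-like gene at the edge of the type I cluster, had a log2 fold change of -1.55 (SE 0.72, adjusted p = 0.268) and overlapped. Of the 24 keratins not tested, 10 had no count and 14 had at most 55 counts in a library. A gene at 0 counts can still hold RNA below the depth of these libraries. KRT74, which had 2 counts in 1 library, is annotated as a pseudogene in GENCODE M21.

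Neighbours in the clusters differed from each other. Along chromosome 11, KRT13 and KRT15 (log2 fold changes 2.88 and 1.68) are followed, in the order of keratin genes, by KRT19 (-0.018), and then, past KRT9, by KRT14, KRT16 and KRT17 (2.72, 3.27 and 1.43). Along chromosome 15, KRT75 (-5.80) is the keratin before KRT6B and KRT5 (2.56 and 2.34), and KRT78 (4.20) is the keratin before KRT8 and KRT18 (-0.87 and -2.18). None of these differences between neighbours was tested.

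**Figure D4:**
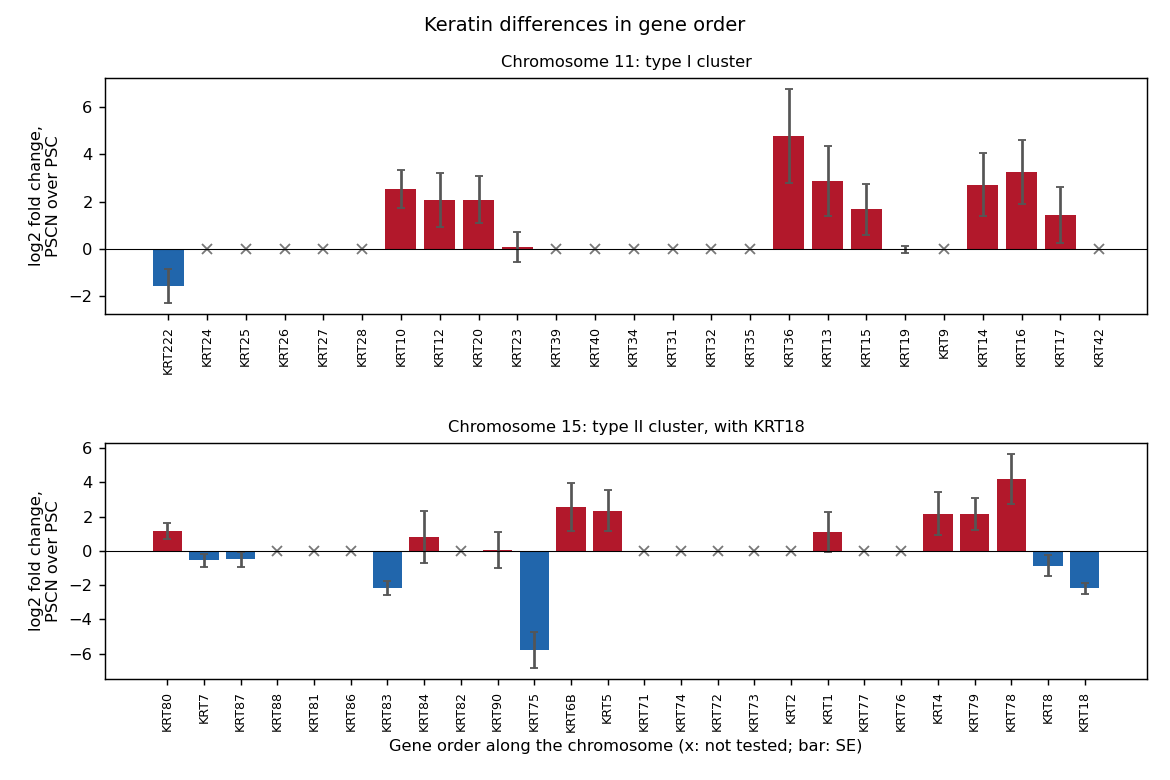
Bars give the log2 fold change of PSCN over PSC (y axis, with 1 SE) for keratins in gene order along chromosomes 11 and 15 (x axis), and crosses mark keratins that were not tested. KRT19 at -0.018 lies between higher genes on chromosome 11, and KRT75 at -5.80 comes before KRT6B at 2.56 on chromosome 15.

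The balance of the 2 types was steady although the total varied. Summed per kb of exon, all keratins reached 11050.4, 20939.5 and 9126 CPM per kb in PSCN and 936, 2073 and 6923 CPM per kb in PSC. The ratio of type II to type I was 0.671, 0.724 and 0.679 in PSCN libraries and 0.623, 0.619 and 0.683 in PSC libraries, and the groups overlapped. For KRT5 to KRT14 the ratio per kb was 0.793, 0.562 and 1.02 in PSCN and 0.931, 0.908 and 0.865 in PSC. The ratio of KRT6B to KRT16 also overlapped, at 5.1, 3.07 and 5.88 in PSCN and 2.97, 6.31 and 6.45 in PSC.

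Other pairs were less even. The ratio of KRT8 to KRT18 was 2.94, 1.85 and 5.63 in PSCN and 1.28, 1.48 and 2.12 in PSC, so PSCN library 2 lay inside the PSC range. That of KRT4 to KRT13 was 0.283, 0.388 and 0.365 in PSCN, below each PSC library at 1.43, 0.659 and 0.547. That of KRT1 to KRT10 was 0.00772, 0.0345 and 0.0148 in PSCN, below each PSC library at 0.0641, 0.0941 and 0.066. These ratios are descriptions and carry no test, since the smallest two-sided p that an exact permutation of 6 libraries in groups of 3 allows is 0.1.

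**Figure D5:**
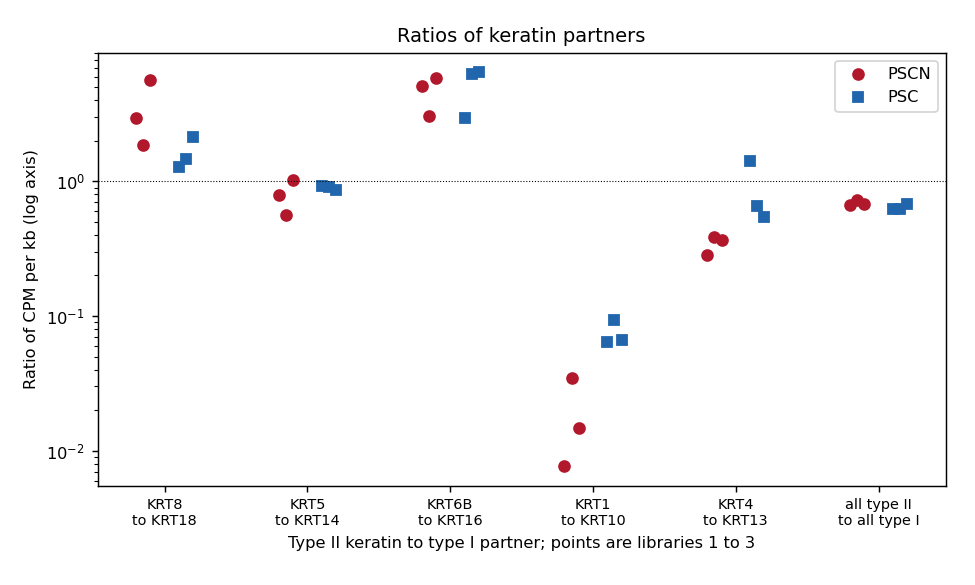
Points give the ratio of CPM per kb of a type II keratin to its type I partner (y axis, log scale) in PSCN libraries 1 to 3 (circles, left) and PSC libraries 1 to 3 (squares, right), for 5 pairs and for the sums of all type II and all type I keratins. The sums stay between 0.619 and 0.724 in all libraries, and the PSCN points lie below the PSC points for KRT4 to KRT13 and KRT1 to KRT10.

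The order of keratins by level per kb changed between libraries. The leading keratin was KRT6B in PSCN library 1 (2095 CPM per kb), KRT14 in PSCN library 2 (5925) and KRT17 in PSCN library 3 (1905). In PSC it was KRT19 in library 1 (264 CPM per kb), KRT14 in library 2 (288) and KRT17 in library 3 (1387). In PSC library 1, KRT19, KRT8, KRT18 and KRT7 took the first 4 places, and in PSC library 2, KRT19 and KRT8 still stood among the first 5. In PSC library 3, as in PSCN libraries 1 and 3, the first 5 places were held by KRT5, KRT6B, KRT13, KRT14 and KRT17.

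Of the genes whose proteins bind or organize keratin filaments, many of them at cell junctions, 11 of the 12 listed had a value. With edgeR 0 passed the test, while 7 higher and 1 lower had an unadjusted p under 0.05, and DESeq2 called 6 higher and 1 lower. Over all genes the shares were 9.48% higher and 12.2% lower without adjustment, and 5.31% and 8.65% with DESeq2. Positive log2 fold changes numbered 8 and negative ones 3. PPL, the linker periplakin, stood at 1350.2 ± 580.2 CPM in PSCN and 337 ± 220.1 CPM in PSC (log2 fold change 2.003, SE 0.56, adjusted p = 0.19), JUP, plakoglobin, had 1.43 (SE 0.40) and the plakophilin PKP3 had 1.63 (SE 0.52). PKP2, the plakophilin of simple epithelium and heart, stood at 14.7 ± 2.56 CPM in PSCN and 43.8 ± 13.6 CPM in PSC (log2 fold change -1.58, SE 0.29, adjusted p = 0.167) and was lower in every PSCN library.

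Of 12 regulators of squamous keratins, all were measured and 12 had positive log2 fold changes, against 49.1% of all genes tested. Among the small ones that overlapped between groups were KLF5 (0.24), NFE2L2 (0.29) and EHF (0.35). SOX2, overexpressed by design in both groups, was at 0.42 and also overlapped. With edgeR 0 passed the test and 2 higher ones had an unadjusted p under 0.05 (9.48% of all genes), and DESeq2 called 2 higher (5.31% of all genes). KLF4, a factor of suprabasal differentiation, stood at 355 ± 122 CPM in PSCN and 137 ± 59.5 CPM in PSC (SD, n = 3 each), with a log2 fold change of 1.37 (SE 0.40, adjusted p = 0.191). OVOL1 had 2.30 (SE 0.88) and GRHL3, a factor of barrier formation, 1.97 (SE 0.98), and these 3 with TFAP2A were the 4 whose PSCN values all lay above those of PSC (15.2% of all genes). TP63 stood at 198, 240.2 and 195 CPM in PSCN and at 10.4, 80.2 and 195 CPM in PSC, where library 3 reached the lowest PSCN level (log2 fold change 1.15, SE 0.90, adjusted p = 0.469).

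Of 6 regulators of hair keratins, 4 were positive and 2 negative. With edgeR 0 passed and 3 higher ones had an unadjusted p under 0.05 (9.48% of all genes), and DESeq2 called 2 higher (5.31%). HOXC13, a factor that drives hair shaft keratins in the follicle, stood at 1.78, 7.7 and 2.41 CPM in PSCN and at 0, 0 and 0.12 CPM in PSC (log2 fold change 6.55, SE 1.56, adjusted p = 0.183). For MSX2 it was 2.29 (SE 0.87), with 7.74, 3.45 and 0.865 CPM in PSCN and 1.3, 0.383 and 0.79 CPM in PSC. Both MSX2 and DLX3 overlapped between groups and were highest in PSCN library 1, which held most of the DLX3 signal. LEF1 was lower in every PSCN library, at a log2 fold change of -0.98 (SE 0.47). Of 55 KRTAP symbols, which encode the matrix proteins of hair, 27 had counts and 6 were tested. With edgeR 0 passed, 0 had an unadjusted p under 0.05, and DESeq2 called 0. Of 4 other hair follicle genes tested, 0 passed with edgeR or DESeq2 and 1 had an unadjusted p under 0.05: DSG4, a desmosomal cadherin of hair, which averaged 0.288 ± 0.0179 CPM in PSCN and was at 0 in all PSC libraries.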

How the data were processed

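Total RNA from tumour biopsies had been made into stranded libraries and read in pairs of 76 nt, per the labels' protocols. Trimmomatic, HISAT2, StringTie, DESeq2 and the build GRCm38 appear in the submitters' processing notes, without versions or order. The authors deposited whole-number counts per gene symbol. In a second table the authors deposited DESeq2's mean normalized signal, PSCN over PSC log2 fold changes and their SE, a Wald statistic (score), and p-values with adjusted p-values. Some symbols follow human naming, and KRT6A, KRT33A and KRT33B have no values. How strand was used when counting is not given in the sources. Columns C1 to C3 and N1 to N3 were matched to PSC and PSCN by letter and replicate number.

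Of 46937 symbols, 21201 passed filterByExpr and were tested with edgeR 4.0.16 (TMM factors, quasi-likelihood F test, Benjamini-Hochberg adjustment over all genes, threshold 0.05; R 4.3.3). Each SE was obtained from the log2 fold change and its F statistic. CPM per kb divides by the union of exons in GENCODE M21, and all 51 keratins matched it by symbol. DESeq2 1.42.0, limma-voom (limma 3.58.1) and other filters, scalings and left-out libraries were alternatives, and the fits were tested on simulated data. The simulation gave every gene the same dispersion and held no library that stood apart, unlike these data. Classes, gene lists and members were chosen with earlier results of these data known. Keratins with a mean of at least 5 CPM in a group were named with every library's value, and others by ranges and counts. From each other list up to 4 genes with the smallest p were named; TP63 and the mention of TFAP2A were added after their values were seen.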

Additional observations from a re-analysis of the deposited data

How the results depend on the processing

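Of 315 values from 15 alternatives for the 21 keratins with a mean of at least 5 CPM, 307 kept the direction of the reported value and 8 reversed, all in KRT19, KRT23 and KRT90. KRT19 was at 0.029 with sex as covariate and at 0.024 without PSCN library 3, and ran from -0.085 to 0.025 (without PSC library 3) over left-out libraries. KRT23 was at -0.33 without PSC library 1, -0.11 without PSC library 2 and 1.08 without PSC library 3, its highest over left-out libraries, and at 1.73 with sex as covariate. KRT90 was at -0.87 without PSCN library 2, -0.40 without PSC library 1 and -0.38 without PSC library 2, 1.80 without PSC library 3, its highest over left-out libraries, and 1.88 with sex as covariate. The cause was not tested. The count of keratins past the threshold was 0 in each direction except with DESeq2 (3 higher, 3 lower), limma-voom with quality weights (2 higher, 3 lower) and without PSC library 3; leaving out each library gave 0 to 2 higher and 0 to 2 lower. The median log2 fold change of keratins was 2.97 with sex as covariate, and ran from 0.65 to 2.74 without each library, lowest without PSCN library 2 and highest without PSC library 3. All PSCN libraries were male by XIST and DDX3Y, as was PSC library 1 alone of the controls. Every value with sex as covariate therefore rests on PSCN against PSC library 1. The number lying above without overlap ran from 9 to 14 without each library (14 without PSC library 3), and the number below from 3 to 5. With a library left out, any gene separates the groups more easily. No share over all genes is given for these settings, so the rise is not read as a keratin result.

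Replicate numbers gave no clear sign of pairing: deviations from the group means correlated at 0.19, -0.05 and 0.02 for numbers 1, 2 and 3. PSCN library 2 with PSC library 3, of unlike number, was also at 0.19. With 3 libraries per group these values cannot exclude pairing. With a replicate block, 0 keratins were higher and 0 lower, and their median log2 fold change was 2.04. Depth limits what can be said of the 24 keratins that were not tested.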

Other observations

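Of 15 genes for intermediate filaments other than keratins, 4 had positive and 11 negative log2 fold changes. With edgeR 0 passed the test, while 1 higher and 2 lower had an unadjusted p under 0.05, and DESeq2 called 0 higher and 1 lower. Over all genes the shares were 9.48% higher and 12.2% lower without adjustment, and 5.31% and 8.65% with DESeq2. LMNA, which encodes nuclear lamins A and C, averaged 362 ± 51.9 CPM in PSCN and 219 ± 55.5 CPM in PSC (SD, n = 3 each), with every PSCN library above every PSC library (log2 fold change 0.72, SE 0.23, adjusted p = 0.195 with edgeR). DES, the muscle filament desmin, stood at 19.1, 25.5 and 18.5 CPM in PSCN and at 353, 38.5 and 33.3 CPM in PSC, so PSC library 1 held most of its signal. GFAP, the glial filament, was lower in every PSCN library but averaged under 1 CPM in each group. LMNB1, which encodes nuclear lamin B1, stood at 83.7, 119 and 88.2 CPM in PSCN and at 52.8, 47.8 and 94.4 CPM in PSC, and the groups overlapped.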
